A study of Homo sapiens with 95 samples.

Results

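The genes described here were 10 S100 calcium-binding proteins, S100A8, S100A9, S100A7, S100A2, S100A4, S100A6, S100A10, S100A11, S100A14 and S100P, out of 27978 gene symbols counted. They were taken by symbol from a list made with earlier results of these data known. S100A8 was chosen by its log2 fold change, as the largest fall of FGFR1 and of NRG1 cells against HcRed cells. The treatment behind that choice was not stated. It was read as DMSO, where S100A8 had the largest fall in both lines among called genes averaging 10 or more reads whose groups did not overlap, so those 2 contrasts are given below as description, with no test. The study measured RNA in AALE, an immortalised line of human bronchial epithelial cells, by sparse full length sequencing (SFL), a highly multiplexed RNA-seq method. The 95 samples covered 8 lines and 4 treatments, with 3 samples in 31 of the 32 groups and 2 in FGFR1 cells with CSC.

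The overexpressed genes were NRF2 (NFE2L2), PIK3CA, FGFR1 and NRG1, each in a line of its own. Their control carried an empty vector with the reporter HcRed. FAT1 and CDKN2A were targeted by CRISPR knockout, and their control, GFP, was transfected with a pSpCas9-EGFP plasmid without a guide. Cells were plated in 24-well plates, grown to confluency, and given DMSO (the solvent control), cigarette smoke condensate (CSC, 24 µg/ml), benzo[a]pyrene (BaP, 173 µM) or the tobacco nitrosamine NNK (490 µM). The length of exposure, and whether each line was 1 clone or a mixed population, were not given in the sources used here. All samples of a line came from that line, so p-values measure the spread between samples of one line, and an effect of a construct cannot be told apart from any other difference between 2 lines.

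S100 proteins are small EF-hand proteins that bind calcium and then contact partner proteins, both inside the cell and, after release, at receptors such as RAGE (AGER) and TLR4. S100A8 and S100A9 pair into calprotectin, an antimicrobial metal-binding complex that is abundant in neutrophils and is also made by stressed or inflamed epithelium. S100A10 and S100A11 pair with annexins at membranes, S100A6 binds annexins and the calcyclin-binding protein CACYBP, S100A2 is a marker of basal epithelial cells and a target of p53 family proteins, and S100A4 binds non-muscle myosin. Most S100 genes lie in one cluster on chromosome 1, within the epidermal differentiation complex.

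On GRCh37 (hg19), the build of the counts, 9 of the 10 genes lay on chromosome 1 and S100P on chromosome 4. S100A8 spanned chr1:153362508-153363549 on the minus strand and S100A9, the nearest of the other members, chr1:153330330-153333499 on the plus strand. S100A6 spanned chr1:153507075-153508720 and S100A10 chr1:151955391-151966335, both on the minus strand. In the GENCODE annotation, exons of S100A6 overlapped those of 1 gene on the opposite strand, which was not among the counted symbols, and no other member shared exon sequence with another gene.

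The 250 bases before the start site are shown for the 2 genes that differed most between lines, S100A8 and S100A9, and for the 2 that moved in opposite directions with treatment, S100A6 and S100A10. They were taken from RefSeq promoters on GRCh38.p14, which held all 10 members. Capitals mark matches to 4 motifs: TATAAA on the coding strand, and on both strands TGANTCA (AP-1), GCGTG (the core of the aryl hydrocarbon receptor site) and TGACNNNGC (the core of the antioxidant response element, which can overlap an AP-1 match). S100A8 has 3 listed start sites, and the one with TATAAA 20 to 40 bases upstream is shown. The regions were chr1:153391074-153391323 (minus), chr1:153357604-153357853 (plus), chr1:153535992-153536241 (minus) and chr1:151993860-151994109 (minus).
S100A8: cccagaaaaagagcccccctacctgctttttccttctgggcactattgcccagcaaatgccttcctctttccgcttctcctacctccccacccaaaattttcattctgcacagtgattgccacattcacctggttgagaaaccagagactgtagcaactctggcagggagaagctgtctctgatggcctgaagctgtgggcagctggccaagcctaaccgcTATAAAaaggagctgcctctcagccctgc
S100A9: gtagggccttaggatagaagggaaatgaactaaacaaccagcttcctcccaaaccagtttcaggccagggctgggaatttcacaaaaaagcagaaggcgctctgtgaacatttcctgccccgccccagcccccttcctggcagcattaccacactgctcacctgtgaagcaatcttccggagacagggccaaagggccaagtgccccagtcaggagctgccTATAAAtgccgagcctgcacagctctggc
S100A6: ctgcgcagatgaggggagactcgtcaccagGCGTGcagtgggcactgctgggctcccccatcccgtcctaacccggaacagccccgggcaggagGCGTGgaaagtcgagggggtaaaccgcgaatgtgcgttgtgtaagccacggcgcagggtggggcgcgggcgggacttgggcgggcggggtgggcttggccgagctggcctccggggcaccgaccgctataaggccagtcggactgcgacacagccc
S100A10: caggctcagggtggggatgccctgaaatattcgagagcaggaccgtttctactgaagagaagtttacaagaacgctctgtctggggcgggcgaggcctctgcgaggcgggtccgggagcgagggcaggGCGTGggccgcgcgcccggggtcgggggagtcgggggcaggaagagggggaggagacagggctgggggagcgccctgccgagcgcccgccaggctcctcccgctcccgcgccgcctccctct

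TATAAA began 29 bases before the start in both S100A8 and S100A9. It was found in 5 of the 10 members (S100A8, S100A9, S100A7, S100A4 and S100P) and in 6.82% of 34943 promoters of the same length. S100A8 was counted by the start chosen for its TATAAA, and the first of its 3 listed starts held none. The 34943 promoters were counted without such a choice. GCGTG was found in 4 members (S100A2, S100A6, S100A10 and S100A11) against 32.2% of promoters. S100A2 has 2 listed starts, of which the first listed was used, and the other held neither GCGTG nor AP-1. AP-1 matched S100A2 alone and the antioxidant core S100A14 alone, against 6.59% and 10.9% of promoters. S100A8 and S100A9 had 53.2% and 55.6% G and C in these windows, and S100A6 and S100A10 had 70.0% and 71.2%.

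Depth set how well each member could be read. Counted reads per sample ran from 287446 to 2116383 (median 934235), 9 samples held fewer than 500000, and 3 reads were worth between 1.44 and 10.1 CPM (reads scaled to TMM-adjusted library size). Of the 10 members, 9 had more than 1 read on average over all samples, and 6 had 10 or more. Per kilobase of exon, the median level over 95 samples was highest for S100A6 (523 CPM per kb), followed by S100A10 (358), S100A2 (240), S100A11 (235), S100A14 (151) and S100A9 (57.8). S100A8 (3.61), S100A4 (2.64), S100P (1.39) and S100A7 (0) were near the floor. The floor of 3 reads covers counting error only, and reads carried no molecular identifiers. Ranges below run from the lowest to the highest sample, and standard errors (SE) come from limma-voom fits, so both include the spread between samples.

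The labels held for the targeted genes. Each overexpressed gene was higher, and each knocked-out gene lower, in its line than in the control, with no overlap between samples. FAT1 RNA had a median of 103 CPM in FAT1 cells against 391 in GFP, and CDKN2A RNA 48.6 against 104. The 9 basal and epithelial markers, among them KRT5 and TP63, summed to between 5032 and 13066 CPM in every sample. Their median sum was 9246 CPM in HcRed and 9677 in NRF2 and 6166 to 7835 in the other lines, so it was highest in the 2 lines high in S100A8, and its part in the results was not tested. The 8 fibroblast markers summed to at most 68.4 CPM, with medians of 29.3 in HcRed and 29.4 in NRF2 and a highest line median of 42.8 in CDKN2A. Of 9 myeloid markers, listed because neutrophils and monocytes are rich in S100A8 and S100A9, ELANE and AIF1 were at 0 in all samples. The summed myeloid level was at most 11.8 CPM, most of it CD14, with medians of 2.87 CPM in HcRed and 1.65 in NRF2 against 1.65 to 4.17 over all lines.

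S100A8 was high in 2 lines, HcRed and NRF2, and low in the other 6. S100A8 had a median of 37.8 CPM in NRF2 (lowest 21.7, highest 52.8, n = 12) and 24.2 in HcRed (14.4 to 44.1, n = 12). Next came CDKN2A at 6.08 (0 to 11.2), NRG1 at 3.50 (1.22 to 7.59), FGFR1 at 2.95 (0 to 5.05, n = 11), PIK3CA at 2.56 (0 to 6.38), GFP at 0.811 (0 to 2.86) and FAT1 at 0.358 (0 to 3.76). Samples of HcRed and CDKN2A did not overlap, whereas every other neighbouring pair in this order did. These low levels rested on few reads, with 12 reads of S100A8 in all 12 GFP samples and 30 in the 11 FGFR1 samples.

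S100A9 gave nearly the same order from more reads. Its median was 170 CPM in NRF2 (142 to 203), 127 in HcRed (92.4 to 187) and 80.9 in CDKN2A (38.0 to 102). It was 38.9 in NRG1 (21.2 to 66.4), 27.3 in FGFR1 (15.7 to 33.1), 25.7 in PIK3CA (17.9 to 39.5), 11.6 in FAT1 (7.48 to 19.1) and 10.4 in GFP (2.91 to 14.2). All neighbouring lines in this order overlapped in their samples. Over the 32 group means of log2 CPM, S100A8 and S100A9 had a Pearson r of 0.92, as a description of groups that share lines and treatments.

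**Figure D1:**
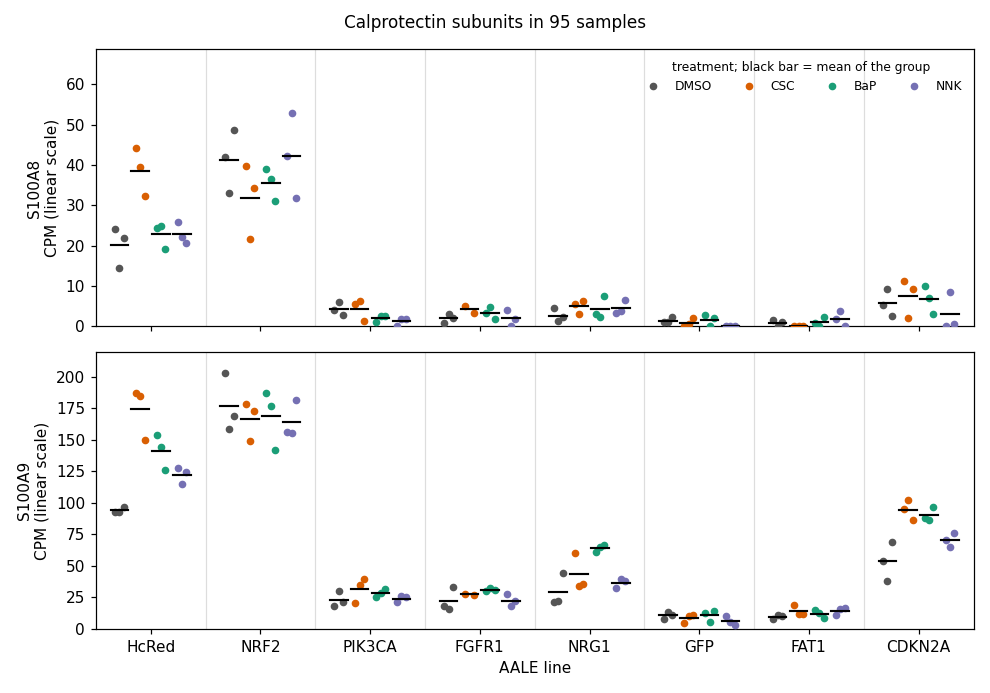
S100A8 (top) and S100A9 (bottom) in CPM on a linear axis for each of the 95 samples, by AALE line, with treatments in colour and a black bar at each group mean. HcRed and NRF2 samples stand highest for S100A8, between 14.4 and 52.8 CPM, and for S100A9 the CDKN2A samples, from 38.0 to 102 CPM, overlap HcRed above and NRG1 below.

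In the DMSO samples that chose S100A8, its level was 24.1, 14.4 and 21.8 CPM in HcRed. It was 0.917, 2.95 and 2.01 in FGFR1, and 4.54, 1.22 and 2.23 in NRG1. The fitted log2 differences were -3.23 (SE 0.59) for FGFR1 and -2.74 (SE 0.54) for NRG1, from 6 and 9 reads in the perturbed lines. S100A9 in the same samples was 92.8, 92.4 and 97.0 CPM in HcRed, against 18.3, 15.7 and 33.1 in FGFR1 and 21.2, 22.0 and 44.6 in NRG1. By the same measure S100A8 was also the largest fall in BaP samples of both lines, and in CSC samples it had rank 4 in FGFR1 and rank 3 in NRG1. In NNK samples it averaged under 10 reads and had no rank, and the largest falls were of S100A9 in FGFR1 and KRT16 in NRG1. RNA was measured in bulk, so fewer cells with S100A8 and less S100A8 RNA per cell cannot be told apart.

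In the CSC, BaP and NNK samples, which a choice made in DMSO did not use, FGFR1 cells also held less calprotectin RNA than HcRed cells. In CSC, S100A8 was 5.05 and 3.37 CPM in FGFR1 against 44.1, 39.4 and 32.2 in HcRed. Over the 3 treatments the log2 fold change was -3.06 (SE 0.29, adjusted p = 5.0e-13, limma-voom with Benjamini-Hochberg adjustment over all genes tested, as for every adjusted p below unless named otherwise). S100A9 fell by 2.44 (SE 0.12, adjusted p = 1.6e-25), and no FGFR1 sample overlapped a HcRed sample for either gene. S100A2 fell by 0.41, S100A11 by 0.39 and S100A6 by 0.18 (adjusted p = 0.027). In all, 5 of the 9 members tested were called, every one lower, where 9.48% of 14309 genes were called (4.65% higher and 4.83% lower). S100A8, chosen for its fall in this line, was among the 5. The S100A6 call was lost when any of 7 of the 17 samples was left out (adjusted p up to 0.12). Leaving out HcRed with NNK replicate 1 brought the number of members called to 8, with S100A10 (adjusted p = 0.032) and S100P (0.042) gained. S100P, with 3 reads in all FGFR1 samples, and S100A7, with 0, can pass the filter only through HcRed. The filter thus sets the direction of any call of either.

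NRG1 cells showed the same pair lower in the samples without DMSO. S100A8 fell by 2.60 (SE 0.25, adjusted p = 7.1e-12) and S100A9 by 1.62 (SE 0.11, adjusted p = 1.3e-17). S100A14 fell by 0.34 (adjusted p = 0.00068) and S100A2 by 0.21 (adjusted p = 0.015). The call of S100A2 was lost without NRG1 with BaP replicate 1 (adjusted p = 0.053). These were 4 of the 9 members tested, the chosen S100A8 included, where 6.38% of 14210 genes were called (3.1% higher and 3.28% lower). S100A6, S100A10 and S100A11 had log2 differences of 0.04, -0.08 and 0.10 and were not called. If the choice had also drawn on BaP samples, the values above would share them. In each treatment taken alone, where at most 2.83% of genes were called, S100A8 and S100A9 were called lower in both lines, with log2 fold changes of S100A8 between -2.52 and -3.37 in FGFR1 and between -2.32 and -2.83 in NRG1. With CSC alone, S100A8 had -3.25 in FGFR1 (adjusted p = 2.9e-08) and -2.83 in NRG1 (adjusted p = 3.0e-06).

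The remaining lines compared with HcRed share its samples, those with DMSO included, with the choice of S100A8, so their values stand beside one another and are not separate evidence. PIK3CA cells, where 27.8% of 14391 genes were called (14% higher and 13.8% lower), had 6 of the 9 members tested called, each of them lower. The falls were of different size: S100A8 fell by 3.22 (SE 0.27), S100A9 fell by 2.31 (SE 0.10), S100A2 fell by 0.31 and S100A6 fell by 0.28 on the log2 scale, and S100A4 and S100P each fell by 1.29. S100A4 and S100P rested on 16 and 7 reads in the 12 PIK3CA samples. S100P passed the filter only through its 24 reads in HcRed, so the filter set the direction of its call, and 5 calls remain without it.

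GFP cells, the other control, differed from HcRed cells as well. S100A8 had a fitted log2 difference of -4.22 (SE 0.31), given as description, since its 12 reads in 12 GFP samples left it to pass the filter through HcRed. S100A9 fell by 3.78 (SE 0.17, adjusted p = 3.2e-34). S100A14 fell by 0.61 and S100A6 by 0.56, and S100A11 rose by 0.36. S100P had -1.18 and, with 5 reads in GFP, also passed the filter only through HcRed. With S100A8 and S100P these were 6 of the 9 members tested, and 4 calls without them, where 45% of 14186 genes were called (22.2% higher and 22.8% lower). The S100P call was lost without GFP with BaP replicate 1 (adjusted p = 0.052) or GFP with CSC replicate 2 (adjusted p = 0.076). The vector, the cells and every other difference between the 2 control lines cannot be told apart.

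NRF2 cells were closest to HcRed for calprotectin. S100A8 rose by 0.46 (SE 0.14), S100A9 by 0.34 (SE 0.07, adjusted p = 0.00033) and S100A14 by 0.19, while S100A2 fell by 0.37 and S100A11 by 0.24. These 5 calls stood against 21.6% of 14242 genes (10.4% higher and 11.2% lower). Both calprotectin rises were found in DMSO samples (S100A8 0.98, S100A9 0.90) and were no longer called without them, at 0.30 for S100A8 and 0.17 for S100A9. In CSC samples alone the differences were -0.29 for S100A8 and -0.07 for S100A9 and were not called.

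CDKN2A cells, set against GFP and not against HcRed, had more calprotectin RNA. S100A9 in DMSO was 53.6, 38.0 and 68.9 CPM in CDKN2A against 7.78, 13.4 and 10.7 in GFP, with no overlap. Over 4 treatments S100A9 rose by 2.96 (SE 0.18, adjusted p = 2.9e-23). S100A8 had a fitted log2 difference of 1.86 (SE 0.38), given as description. Its 66 reads in CDKN2A and 12 in 12 GFP samples left it to pass the filter only through CDKN2A. S100A4 rose by 1.30 (adjusted p = 0.00032, 67 reads against 26), S100A2 by 0.70, S100A6 by 0.49 and S100A14 by 0.36. The annexin partners S100A10 and S100A11 each fell by 0.34. All 8 members tested were called, where 57.6% of 14383 genes were (29.4% higher and 28.3% lower). The direction of the S100A8 call was set by the filter, and 2 members were too low to be tested.

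FAT1 cells differed from GFP in the more abundant members. S100A2 fell by 0.58 (SE 0.05), S100A11 by 0.57 (SE 0.06) and S100A10 by 0.33 (SE 0.04), and S100A14 rose by 0.38 (SE 0.06) and S100A6 by 0.27 (SE 0.05). The rise of S100A6 was not found in every treatment: its log2 difference was 0.52 in DMSO samples and -0.01 in NNK samples. These 5 of the 7 members tested stood against 48.9% of 14021 genes called (25% higher and 23.9% lower). S100A9 had a log2 difference of 0.40 (adjusted p = 0.10), and S100A8, with 10 and 12 reads in the 2 lines, was not tested.

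**Figure D2:**
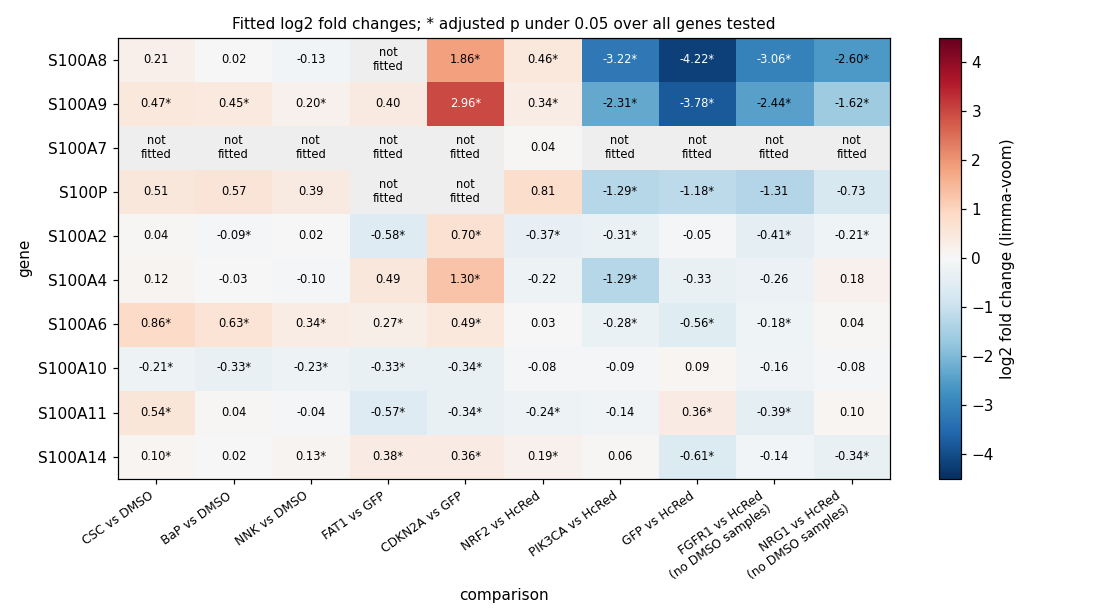
Fitted log2 fold changes of the 10 members (rows) in 10 comparisons (columns), coloured from blue (lower) to red (higher), with an asterisk for an adjusted p under 0.05 and grey where the mean count was too low to fit. The top 2 rows, S100A8 and S100A9, hold the strongest colours, from -4.22 in GFP against HcRed to 2.96 in CDKN2A against GFP.

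S100A2, the basal marker, had its own order of lines. Its median was 691 CPM in CDKN2A (609 to 737, n = 12), above every sample of the next line, HcRed, at 436 (392 to 488). The lowest line was FAT1 at 273 (215 to 352), and all other neighbours overlapped. S100A14, a membrane-associated member found in many epithelia, was highest in NRF2 at 242 CPM (180 to 296) and lowest in GFP at 139 (121 to 168), with overlap between all neighbours.

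**Figure D3:**
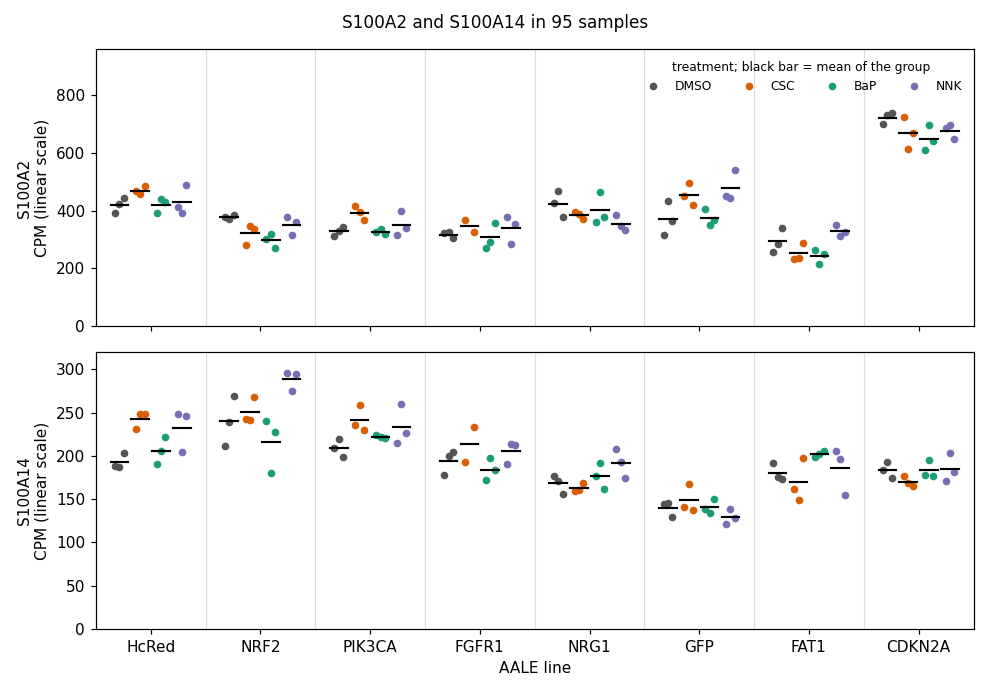
S100A2 (top) and S100A14 (bottom) in CPM on a linear axis for each sample, by AALE line, with treatments in colour and group means as black bars. The 12 CDKN2A samples lie at 609 CPM or more for S100A2, above all other samples.

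With CSC, 5 of the 9 members tested were called (4 higher), where 55.1% of 14384 genes were called (28% higher and 27.1% lower). BaP gave 4 members (2 higher) against 51% (26.1% higher and 24.9% lower), and NNK 4 (3 higher) against 51.8% (26.1% higher and 25.7% lower), so the share of members called was near that of all genes. The median log2 fold change over the 9 members tested (S100A7 was too low) was 0.21 with CSC, 0.02 with BaP and 0.02 with NNK, beside all-gene medians of 0.00, 0.01 and 0.00. The doses differed between the compounds, so their values are set side by side without a comparison. Treated samples were on average shallower, with median counted reads of 825587 for CSC, 836088 for BaP and 753703 for NNK against 1051108 for DMSO, and the part of depth in these values was not tested beyond leaving out the 9 shallow samples, which kept S100A6 at 0.84, 0.60 and 0.32.

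S100A6 rose with CSC and with BaP in each of the 8 lines taken alone, and with NNK in 6 of them, at 0.24 in NRG1 and 0.11 in FAT1 without a call. In HcRed it was 332, 430 and 394 CPM with DMSO, 805, 824 and 723 with CSC, 502, 607 and 707 with BaP, and 486, 557 and 552 with NNK. In GFP it was 229, 261 and 223 with DMSO and 551, 515 and 439 with CSC. CSC and BaP samples lay above all DMSO samples of the same line in 8 of 8 lines, and NNK samples in 7 of 8. Over all lines S100A6 rose by 0.86 with CSC (SE 0.04, adjusted p = 5.7e-45), 0.63 with BaP (SE 0.04, adjusted p = 6.0e-31) and 0.34 with NNK (SE 0.04, adjusted p = 1.9e-12). A correction for GC content and gene length left rises of 0.40, 0.26 and 0.09, all 3 still called.

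S100A10 moved the other way. In CDKN2A cells it was 407, 376 and 428 CPM with DMSO against 309, 243 and 299 with BaP. BaP samples lay below all DMSO samples of their line in 8 of 8 lines, and CSC and NNK samples in 4 of 8 each. It fell by 0.21 with CSC (SE 0.03), 0.33 with BaP (SE 0.03) and 0.23 with NNK (SE 0.03), with adjusted p of 1.4e-08, 1.6e-15 and 3.3e-09. With the correction the NNK value was -0.11 and still called.

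S100A11 rose with CSC by 0.54 (SE 0.05, adjusted p = 6.7e-21). In GFP it was 172, 188 and 200 CPM with DMSO and 269, 297 and 239 with CSC, and CSC samples lay above all DMSO samples in 8 of 8 lines. With BaP and NNK its log2 differences were 0.04 and -0.04 and were not called. The correction for GC content and length brought the CSC rise to 0.28, still called, and gave -0.14 with BaP (adjusted p = 0.020).

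**Figure D4:**
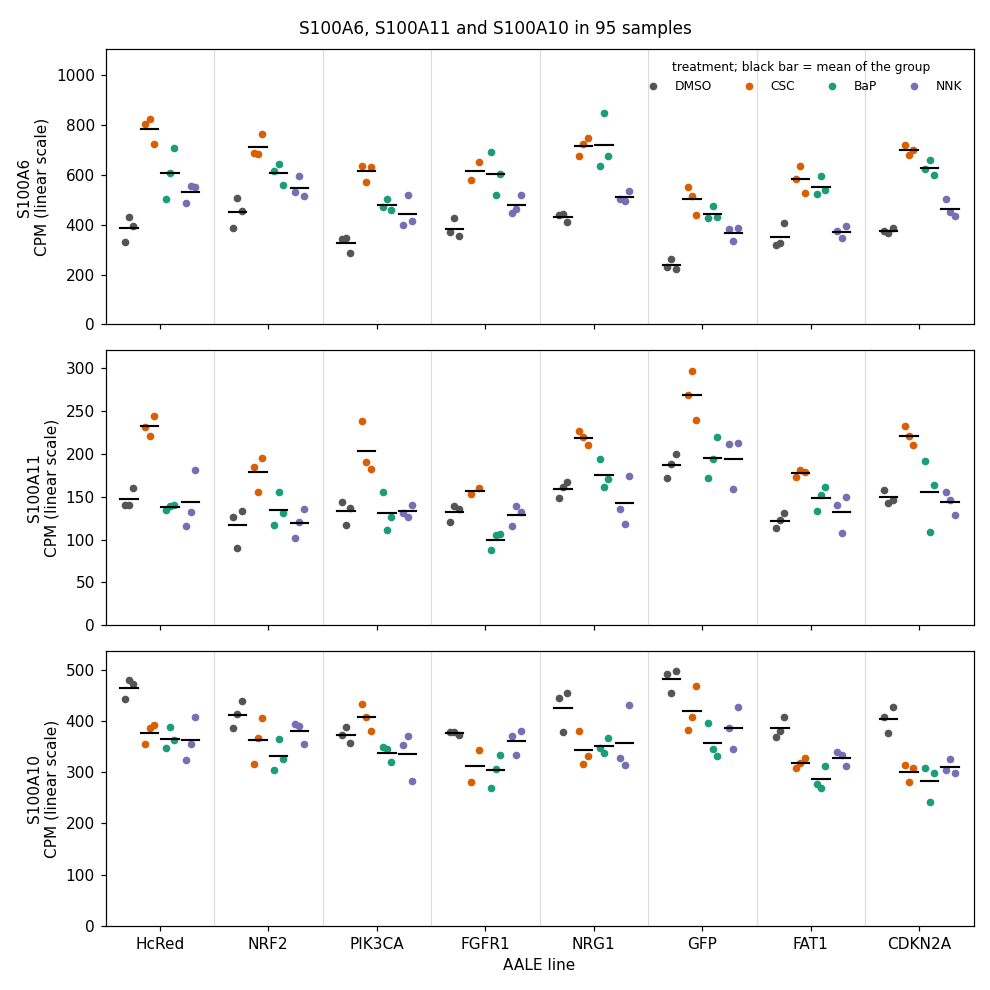
S100A6, S100A11 and S100A10 (top to bottom) in CPM on a linear axis for each sample, by AALE line, with treatments in colour and group means as black bars. S100A6 with CSC and BaP and S100A11 with CSC stand above DMSO in all 8 lines, and S100A10 with BaP stands below it.

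S100A9 rose by 0.47 with CSC (SE 0.08, adjusted p = 1.2e-07), 0.45 with BaP (SE 0.08, adjusted p = 3.8e-07) and 0.20 with NNK (SE 0.08, adjusted p = 0.039). Leaving out the HcRed, FGFR1 and NRG1 lines brought these to 0.24, 0.23 and 0.09, the last no longer called. Without the 9 shallow samples the NNK value was 0.20 and missed the threshold (adjusted p = 0.051). The NNK call was also missed with edgeR (0.16, adjusted p = 0.091), DESeq2 (0.17, adjusted p = 0.11), no filter on low counts (adjusted p = 0.062) and the correction for GC content and length (0.11). With the correction for GC content and length the CSC value was 0.14 and not called. S100A8 had log2 differences of 0.21, 0.02 and -0.13 with CSC, BaP and NNK, none called. S100A14 had small rises with CSC (0.10) and NNK (0.13), and the correction turned the CSC value to -0.10 (adjusted p = 0.038) and brought the NNK value to 0.0027, no longer called. Without the HcRed, FGFR1 and NRG1 lines neither was called (0.04 and 0.10). S100A2 fell by 0.09 with BaP (adjusted p = 0.033), beside uncalled values of 0.04 with CSC and 0.02 with NNK. With a minimum mean of 10, BaP gave 3 members in place of 4. With the correction for GC content and length, CSC still gave 5 members, S100A9 not among them, and BaP gave 6. The members gained by that correction had the opposite sign to the main fit.

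Whether the lines differed in their response was tested as an interaction of line with each treatment, over the 6 lines other than FGFR1 and NRG1. With CSC, 3 members were called, S100A2 (adjusted p = 0.00055), S100A9 (0.00099) and S100A10 (0.012), where 1.17% of 14497 genes were. DESeq2 and the fit with no filter on low counts each called 2. S100A9 rose with CSC by 0.89 in HcRed and by 0.83 in CDKN2A, while its values were -0.09 in NRF2 and -0.27 in GFP. S100A2 rose by 0.33 in GFP and 0.24 in PIK3CA, with -0.24 in NRF2 and -0.18 in FAT1. S100A10 fell by 0.41 in CDKN2A and had 0.11 in PIK3CA. With BaP only S100A9 was called by limma-voom (adjusted p = 0.043, against 0.562% of 14420 genes), and leaving out any of 17 of the 36 samples lost the call (adjusted p up to 0.29), as did edgeR and DESeq2. With NNK limma-voom called none (0.202% of 14378 genes), and 5 of the 8 members tested had an unadjusted p under 0.05, beside 6.82% of all genes, while edgeR and DESeq2 called 0 as well. S100A6, whose rise was called in each of the 8 lines alone with CSC and with BaP, had interaction adjusted p of 0.11 and 0.39. The unadjusted p were 0.0020 and 0.015. Its CSC interaction was called without HcRed with CSC replicate 3 (adjusted p = 0.047) or without NRF2 with DMSO replicate 1 (0.026).

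S100A7 (psoriasin, an antimicrobial protein of keratinocytes) and S100P were nearly unread. S100A7 had 34 reads in all 95 samples, 17 in HcRed and 13 in NRF2, and none in FAT1, FGFR1 or NRG1. A close copy, S100A7A, could share its reads. Within HcRed it had 6, 4 and 2 reads with CSC and 0 in each DMSO sample. S100P had 100 reads, 43 in NRF2 and 24 in HcRed. For both genes most reads thus fell in the 2 lines where S100A8 was high. S100A4 had 260 reads and a highest median in CDKN2A, at 5.31 CPM.

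Partner proteins and receptors of the S100 family were read from a list of 17. Of 15 tested, 10 were lower and 2 higher with CSC, the same numbers with BaP, and 8 lower and 3 higher with NNK. Over all genes 27.1%, 24.9% and 25.7% were lower. The list medians were -0.23, -0.21 and -0.15, beside 0.00, 0.01 and 0.00 over all genes. BSG (basigin, a receptor of S100A9) rose by 0.62 with CSC, 0.58 with BaP and 0.51 with NNK. ALCAM, another S100 receptor, fell by 0.43 with CSC. SUGT1, a binder of S100A6, fell by 0.44, and CACYBP by 0.37. In CDKN2A cells, where S100A10 and S100A11 were lower, ANXA1, the partner of S100A11, fell by 1.37. In FAT1 cells ANXA1 fell by 0.68 and ANXA2, the partner of S100A10, by 0.61. Of 14 partners and receptors tested in each line, 4 were higher and 7 lower in CDKN2A, and 3 higher and 8 lower in FAT1. Over all genes 28.3% were lower in CDKN2A and 23.9% in FAT1. Whether the annexin falls go with those of S100A10 and S100A11 was not tested.

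Of the 10 other S100 genes only 4 were tested in most comparisons. S100A16 rose by 0.17 with CSC and 0.29 with NNK, and fell by 0.39 in FGFR1 and 0.40 in FAT1. S100A13 rose by 0.73 in CDKN2A. Among 13 host defence genes, IL1A, which encodes the cytokine interleukin-1 alpha, rose by 1.65 with CSC, 1.40 with BaP and 0.90 with NNK. Of 9 tested, 4 were called higher with CSC, 4 with BaP and 3 with NNK, and 0 lower with each. Over all genes 28%, 26.1% and 26.1% were higher. In FGFR1 and in NRG1, 8 host defence genes were tested, of which 2 were lower, 1 was higher and 5 were not called. The protease inhibitor PI3 (elafin) fell by 4.08 in FGFR1 and had -3.14 in NRG1, also called. SLPI, another one, fell by 1.51 in FGFR1 and had -1.57 in NRG1, called too. The called rises were of SAA1 in FGFR1 (0.89, adjusted p = 0.048), named after its values were seen, and of IL1A in NRG1 (0.35, adjusted p = 0.042). Against HcRed, host defence calls were 4 higher and 2 lower of 9 in PIK3CA and 0 higher and 5 lower of 6 in GFP. In NRF2 they were 0 higher and 2 lower of 7. Against GFP they were 4 higher and 0 lower of 7 in CDKN2A, and 0 and 0 of 4 in FAT1. Over all genes 14% were higher in PIK3CA and 29.4% in CDKN2A. Of 16 other genes of the epidermal differentiation complex, the cornified envelope gene SPRR1B fell by 2.24 in GFP and by 1.17 in NRF2 against HcRed. In GFP, 3 of the 6 tested were higher and 3 lower, and the hair follicle gene TCHH and the filaggrin gene FLG rose by 1.58 and 0.69. In NRF2, 1 of 7 was lower and none was called higher. Lower calls were 5 of 6 in PIK3CA, 3 of 6 in FGFR1 and 2 of 6 in NRG1, with 0 higher in each. Over all genes 22.8% were lower in GFP, 11.2% in NRF2, 13.8% in PIK3CA, 4.83% in FGFR1 and 3.28% in NRG1. Against GFP, 3 of 4 were lower in FAT1 and 0 higher (23.9% of all genes lower). In CDKN2A 2 of 4 were lower and 1 higher (28.3% lower). Over all 95 samples only 4 of the 16 had enough reads to be tested.

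The genes most like S100A8 over the 32 group means, out of 10056 genes averaging 10 or more reads, were KRT17 (Pearson r = 0.80), SLPI (0.78), TIMP3 (0.74), KRT16 (0.73) and GNPTG (0.72). KRT17 had a median of 2173 CPM in NRF2 and 1707 in HcRed, and of at most 1147 in the other 6 lines. KRT16 differed from S100A8 in GFP, with 24.7 CPM, and in CDKN2A, with 34.6, against 42.8 in HcRed. By Spearman's rank correlation these 5 genes had 0.64, 0.69, 0.65, 0.69 and 0.73, which gave GNPTG rank 3 and KRT17 rank 56. Over the 95 samples GNPTG had a Pearson r of 0.46 (rank 152), while the other 4 had 0.65 to 0.75. The groups share lines and treatments, and these coefficients describe them only.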

How the data were processed

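SFL libraries were read for 95 samples. Per the labels and the study's methods, the authors aligned reads to hg19 with STAR 2.5.2b and counted them per RefSeq gene with featureCounts, and they deposited raw counts (cutadapt 1.12 and FastQC 0.11.5 are also named in the submitters' processing notes), which are whole numbers with no normalization. The setting for strand was not given in the sources used here, and fragments that share a sequence with a close copy may be lost or split. From these counts, genes with a mean above 1 in the fitted samples were tested with limma 3.58.1 (voom, TMM from edgeR 4.0.16, 2-sided) in R 4.3.3 and called at an adjusted p under 0.05. Treatments were fitted over all samples with line as a factor, lines over their samples with treatment as a factor, and FGFR1 and NRG1 without DMSO samples. CPM used TMM over all samples. The alternatives tried included DESeq2 1.42.0 with its own test or with its size factors alone, the quasi-likelihood test of edgeR, a minimum mean of 10 or none, the replicate number as a block, single lines or treatments, omission of each sample, a loess correction (span 0.3) for GC content and length, and, chosen after seeing the data, no samples under 500000 reads. For the correction 93.8% of tested genes had a value. No pair of samples in a group agreed within sampling noise (lowest chi-square per degree of freedom 1.14 over 94 pairs). The members and lists were chosen with earlier results of these data known. Named were the members, in each list at most 4 called genes with the largest change and a mean count of at least 10, and the 5 genes most like S100A8. Scripts were tested on simulated counts.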

Additional observations from a re-analysis of the deposited data

Results flagged for a closer look

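The effect of CSC differed between the 6 lines tested for S100A2 (adjusted p = 0.000554), S100A9 (adjusted p = 0.000986) and S100A10 (adjusted p = 0.0124), and that of BaP for S100A9 (adjusted p = 0.0425), by the interaction term of limma-voom. For S100A9 the CSC values were 0.89 in HcRed and -0.09 in NRF2, and those of BaP 0.62 and -0.07. The S100A10 call was lost when CDKN2A with CSC replicate 2, PIK3CA with CSC replicate 1, or PIK3CA with DMSO replicate 1 or 3 was left out (adjusted p from 0.062 to 0.17). For CSC, DESeq2 called 2 members in place of 3, and so did the fit with no filter on low counts.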

How the results depend on the processing

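With all lines or treatments in the fit, the number of members called stayed within 1.5 times under another tool, scaling, filter or depth limit, except that the BaP interaction call was lost with edgeR (0 members), DESeq2 (0) and no filter on low counts (0), and that NNK gave 2 members without the FGFR1, NRG1 and HcRed lines and 2 with the correction for GC content and length. Over all genes, that correction took the calls from 7922 to 4571 for CSC, from 7337 to 3381 for BaP and from 7455 to 2336 for NNK. With no filter the calls were 12546 for BaP (70.2% higher, against 51.2%) and 12582 for NNK (69.5% higher), and the median of all genes moved to 0.15, 0.24 and 0.24 for CSC, BaP and NNK. The cause was not tested. Within the limit of 1.5 times, the CSC interaction gave 2 members in place of 3 with DESeq2 and with no filter.

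Fits of 1 line hold fewer samples. With CSC, NRF2 samples alone gave 2 members, PIK3CA 3, FGFR1 1, NRG1 3 and FAT1 3. With BaP, PIK3CA gave 1, FGFR1 1, GFP 2 and FAT1 2. With NNK, HcRed gave 2, NRF2 1, PIK3CA 1, FGFR1 1, NRG1 0, FAT1 0 and CDKN2A 2. Fits of 1 treatment gave 3 members for FAT1 against GFP with NNK, 5 for CDKN2A against GFP with BaP, 2 for PIK3CA with NNK, 3 and 2 for FGFR1 with BaP and NNK, and 2 and 2 for NRG1 with BaP and NNK. For NRF2 they gave 2 with DMSO, 2 with CSC, 1 with BaP, 0 with NNK and 2 without DMSO.

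Some single values changed sign in such fits, in most cases near 0. S100A9 had -0.088 with CSC, -0.066 with BaP and -0.094 with NNK in NRF2, and -0.27 with CSC and -0.53 with NNK in GFP. S100A2 with BaP had 0.012 in HcRed and 0.063 in GFP, and S100A10 with CSC had 0.11 in PIK3CA. S100A14 with CSC had -0.035 in NRG1, -0.083 in FAT1, -0.097 in CDKN2A and -0.096 with the correction for GC content and length, and with NNK -0.11 in GFP. S100A6 in FAT1 against GFP had -0.0075 with NNK. In NRF2 with CSC, S100A8 had -0.29 and S100A9 -0.066.

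Leaving out each sample in turn gave 4 to 5 members for CSC, 3 to 4 for BaP and 3 to 4 for NNK. It gave 5 to 5 for FAT1, 8 to 8 for CDKN2A, 5 to 5 for NRF2, 6 to 8 for PIK3CA, 5 to 7 for GFP against HcRed, 4 to 8 for FGFR1 and 3 to 4 for NRG1. These ranges can include calls whose direction was set by the filter, as named above for S100A8, S100A7 and S100P. The interactions gave 2 to 4 for CSC, 0 to 1 for BaP and 0 to 0 for NNK. S100A14 lost its CSC call in 17 of 95 omissions, S100A9 its NNK call in 21 and S100A2 its BaP call in 3.

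Samples with the same replicate number did not deviate together, with mean correlations of deviations between -0.005 and 0.03, so the numbers were not taken as a pairing. With the number as a replicate block, FGFR1 had 7 members called in place of 5, and the other 12 comparisons stayed within 1.5 times. In the FGFR1 fit S100P can pass the filter only through HcRed. Few reads stand behind S100A8 in the low lines, S100A4, S100P and S100A7, so differences of these genes that were not called may have been too small to detect at this depth.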
